A study of Mus musculus with 51 samples.

Results

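The bone-selective loss of both Tet1 and Tet2 was set against the loss of either gene alone in femur RNA. Of the 51 samples in the series, 9 are RNA-seq libraries of femurs in which Tet1, Tet2 or both were deleted: 3 labelled Tet1/2 cKO, 3 labelled Tet1 cKO and 3 labelled Tet2 cKO, chosen by their labels alone. The question of the comparison is what losing a second Tet gene adds to losing the first, so the 3 Tet1/2 cKO libraries were compared with the 6 single cKO libraries together. The 3 libraries of Ctrl femurs were used as the background level and for the estimate of spread. All mice were 11 weeks old and of the C57BL/6 strain. Every animal, controls included, carried the Prrx1-Cre transgene. Ctrl mice had no floxed Tet allele, Tet1 cKO mice were Tet1 fl/fl, Tet2 cKO mice were Tet2 fl/fl, and Tet1/2 cKO mice were homozygous for both floxed alleles. Prrx1-Cre acts in the limb bud mesenchyme and its descendants, which include osteoblasts and osteocytes of the long bones, so blood-forming cells, osteoclasts and vessels in the same femur keep both genes. RNA was extracted from whole minced femurs after the marrow had been flushed out. The femur libraries are biological triplicates by the study's methods.

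TET proteins are dioxygenases that need iron, 2-oxoglutarate and, for full activity, vitamin C. They oxidise 5-methylcytosine to 5-hydroxymethylcytosine (5hmC) and then to further oxidised forms, which thymine DNA glycosylase, the product of Tdg, can cut out so that repair restores an unmethylated cytosine. Tet1, Tet2 and Tet3 overlap in what they do, and the loss of a single member can be masked by the others. In bone, osteoblasts of the Prrx1 lineage lay down type I collagen and mineralise it, whereas osteoclasts, which come from blood precursors, resorb it.

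The deposited values are normalized counts, that is, reads per gene divided by a size factor for each library. Whole reads could be recovered from them exactly, and gave 30159060 to 37072342 reads in the single cKO libraries, 36664800 to 49788434 in the Tet1/2 cKO libraries and 28597536 to 46445221 in the Ctrl libraries. Of 25938 genes in the table, the 16780 that reached a value of 10 in 3 or more of the 12 libraries were tested. The marker genes showed bone, marrow and muscle RNA in these femurs. Summed over 20 skeletal muscle genes, normalized counts were 1905147, 36357 and 12844 in the Tet1 cKO libraries, 2471360, 1085314 and 5980 in the Tet2 cKO libraries and 11396, 6070 and 716343 in the Tet1/2 cKO libraries. Muscle RNA thus varied within every genotype, and it was high (716343 or more) in 3 of 6 single cKO and 1 of 3 Tet1/2 cKO libraries, called rich in muscle in what follows. Tet2 cKO replicate 2 stood apart from the other single cKO libraries, with the lowest sum of 20 osteoblast genes (314875, the others between 1288478 and 4092557) and the highest sum of 20 neutrophil genes (2001429, the others between 478291 and 1139185). The list counts and bone gene calls that it moved most are given with and without it. Because it was picked out by these same sums, leaving it out widens the osteoblast and neutrophil gaps. Values without it show this dependence and are not separate evidence.

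The 3 Tet genes were examined first. Tet1, on chromosome 10 from 62804570 to 62887469 (GRCm38), had normalized counts of 485, 415 and 442 in the libraries labelled Tet1/2 cKO, 630, 532 and 773 in those labelled Tet1 cKO and 691, 349 and 538 in those labelled Tet2 cKO. The control libraries had 374, 420 and 435, so the counts in the libraries labelled Tet1 cKO lay above those of all 3 controls. Tet2, on chromosome 3 from 133463677 to 133545136, had 2970, 1851 and 2351 in the libraries labelled Tet1/2 cKO and 2245, 2210 and 1834 in those labelled Tet2 cKO. The controls had 2236, 2512 and 2251, which overlaps both groups. Between Tet1/2 cKO and single cKO libraries, the log2 difference was -0.35 for Tet1 (standard error 0.22), 0.04 for Tet2 (standard error 0.15) and 0.10 for Tet3 (standard error 0.15), with exact permutation p-values of 0.19, 0.857 and 0.5 (two-sided, 3 against 6 libraries, 0.571, 0.857 and 0.75 after Benjamini-Hochberg adjustment over the 3 genes). The direction for Tet2 and Tet3 depended on the setting. Whole-gene counts hold reads from every exon and from cells that Prrx1-Cre does not reach, and each floxed allele removes a single exon, so these counts do not show whether deletion took place, and the groups are named by their labels.

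In the test across all genes, Tdg was the single gene that rose and its processed copy Tdg-ps2 the single gene that fell in Tet1/2 cKO compared to single cKO femurs (limma, adjusted p under 0.05, 0.0119% of the genes tested in all and 0.00596% in each direction). Tdg lies on chromosome 10 from 82629814 to 82650799 on the plus strand, and Tdg-ps2, annotated as a transcribed pseudogene, lies on the same chromosome from 42052558 to 42055453 on the minus strand. Both are far from Tet1, with 19.74 and 20.83 Mb between the start sites. Their sequences are close to identical: 1235 of 1244 aligned bases of the 1266-base Tdg coding sequence are the same in Tdg-ps2. Of the 50-base stretches of this coding sequence, 76.1% occur unchanged in the pseudogene. Over the whole 3523-base Tdg transcript, 79.5% aligned to Tdg-ps2 and 61.2% of 50-base stretches occurred in it unchanged. Reads from the unaligned part can tell the pair apart, but within the aligned coding bases only reads that cover a differing base can. The first stretch of 90 coding bases with the most differences is therefore shown. In Tdg it is spread over an exon junction (chr10:82648039-82648627), and in Tdg-ps2 it is continuous (chr10:42054206-42054295, minus strand). Both are from RefSeq on GRCm38.p6, written 5′ to 3′, with the differing bases in capitals.
Tdg: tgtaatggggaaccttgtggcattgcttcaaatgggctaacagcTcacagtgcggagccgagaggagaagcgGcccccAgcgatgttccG
Tdg-ps2: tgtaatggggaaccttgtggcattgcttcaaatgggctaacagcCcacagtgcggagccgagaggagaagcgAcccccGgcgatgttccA
Counted from 1 at the 5′ end of the stretch, with the Tdg base first, the differences are T45C, G73A, A79G and G90A.

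Tdg had normalized counts of 928, 790 and 701 in the Tet1/2 cKO libraries, 153, 205 and 155 in the Tet1 cKO libraries and 156, 172 and 223 in the Tet2 cKO libraries. The Ctrl libraries had 835, 758 and 834, so double knockout and control libraries were high and all 6 single knockout libraries low, without overlap. The log2 difference between Tet1/2 cKO and single cKO was 2.19 (standard error 0.19, limma adjusted p = 0.00297). Tdg-ps2 went the other way, with 96.2, 25.9 and 21.1 in Tet1/2 cKO against 734, 700 and 827 in Tet1 cKO and 689, 912 and 764 in Tet2 cKO. Its Ctrl libraries had 21.1, 37.9 and 27.8, again next to the double knockout. The log2 difference was -4.31 (standard error 0.42, limma adjusted p = 0.00467). Since reads can be assigned to either copy, both values are uncertain as levels of each gene. A difference in transcription and a difference between the animals in the sequence of the pair cannot be told apart from gene counts. The sum of the pair was 854 ± 154 (SD, n = 3) in Tet1/2 cKO, 948 ± 86.8 (SD, n = 6) in single cKO and 838 ± 36.5 (SD, n = 3) in Ctrl femurs. This sum did not differ beyond the spread (log2 difference -0.16, exact permutation p = 0.262, two-sided, 3 against 6). What changed was the share of the sum assigned to Tdg, from 15.8 to 22.7% in the single cKO libraries to 90.6 to 97.1% in the Tet1/2 cKO libraries. In Ctrl it was 95.2 to 97.5%. Against Ctrl, Tdg and Tdg-ps2 were also the 2 genes past the threshold in Tet1 cKO (limma adjusted p = 0.00858 for both) and in Tet2 cKO (0.00762 for both), and in Tet1/2 cKO their adjusted p was 0.989 and 0.798. Both genes were also the 2 that passed in Tet1/2 cKO against Tet1 cKO alone, against Tet2 cKO alone, and in the interaction, which asks whether the double knockout differs from the sum of the single changes. Fitted on the 9 knockout libraries alone, 0 genes passed against Tet1 cKO and 0 against Tet2 cKO, while both still passed against the single cKOs together. The interaction was 4.39 for Tdg (limma adjusted p = 0.000345) and -9.03 for Tdg-ps2 (limma adjusted p = 0.000358) on the log2 scale. Without Tet1/2 cKO replicate 2 the adjusted p in the comparison with single cKOs was 0.0561 for Tdg and 0.0634 for Tdg-ps2. Without the 4 knockout libraries rich in muscle RNA it was 0.101 and 0.11, and without the 3 single cKO libraries among them 0.116 for Tdg-ps2.

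**Figure D1:**
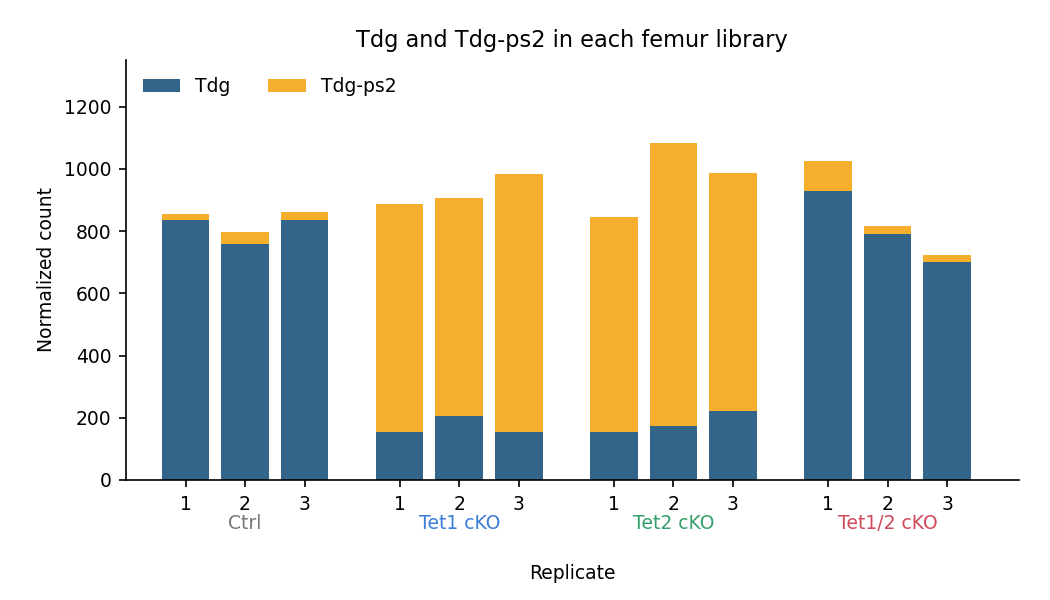
Normalized counts of Tdg (blue) and Tdg-ps2 (orange), stacked, in each of the 12 femur libraries, with the replicate number under each bar and no error bars since each bar is a single library. The stacks are of similar height, and Tdg takes up to 22.7% of a stack in the 6 single cKO libraries and at least 90.6% in the Ctrl and Tet1/2 cKO libraries.

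How many further genes passed depended strongly on the test and on a few libraries. At an unadjusted p under 0.05, 1689 genes were higher and 1659 lower in Tet1/2 cKO (20% of the genes tested), but 1366 genes had an adjusted p under 0.21 and no more than the Tdg pair passed. The edgeR quasi-likelihood test on the recovered reads called 3 genes, the third being Fcer1a. DESeq2, the tool the study used, called 299 genes as higher and 599 as lower (6.34% of the 14163 genes to which it gave an adjusted p). The limma test without Tet2 cKO replicate 2 called 269 as higher and 677 as lower (5.64%). Between these 2 settings, 496 genes were called in the same direction. Without Tet1/2 cKO replicate 2, 0 genes passed in limma, against 2506 at an unadjusted p under 0.05. A description that needs no test is the number of genes whose 3 Tet1/2 cKO values all lay outside the range of the 6 single cKO values. It was 1567 (9.34%), with 973 above (5.8%) and 594 below (3.54%).

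**Figure D2:**
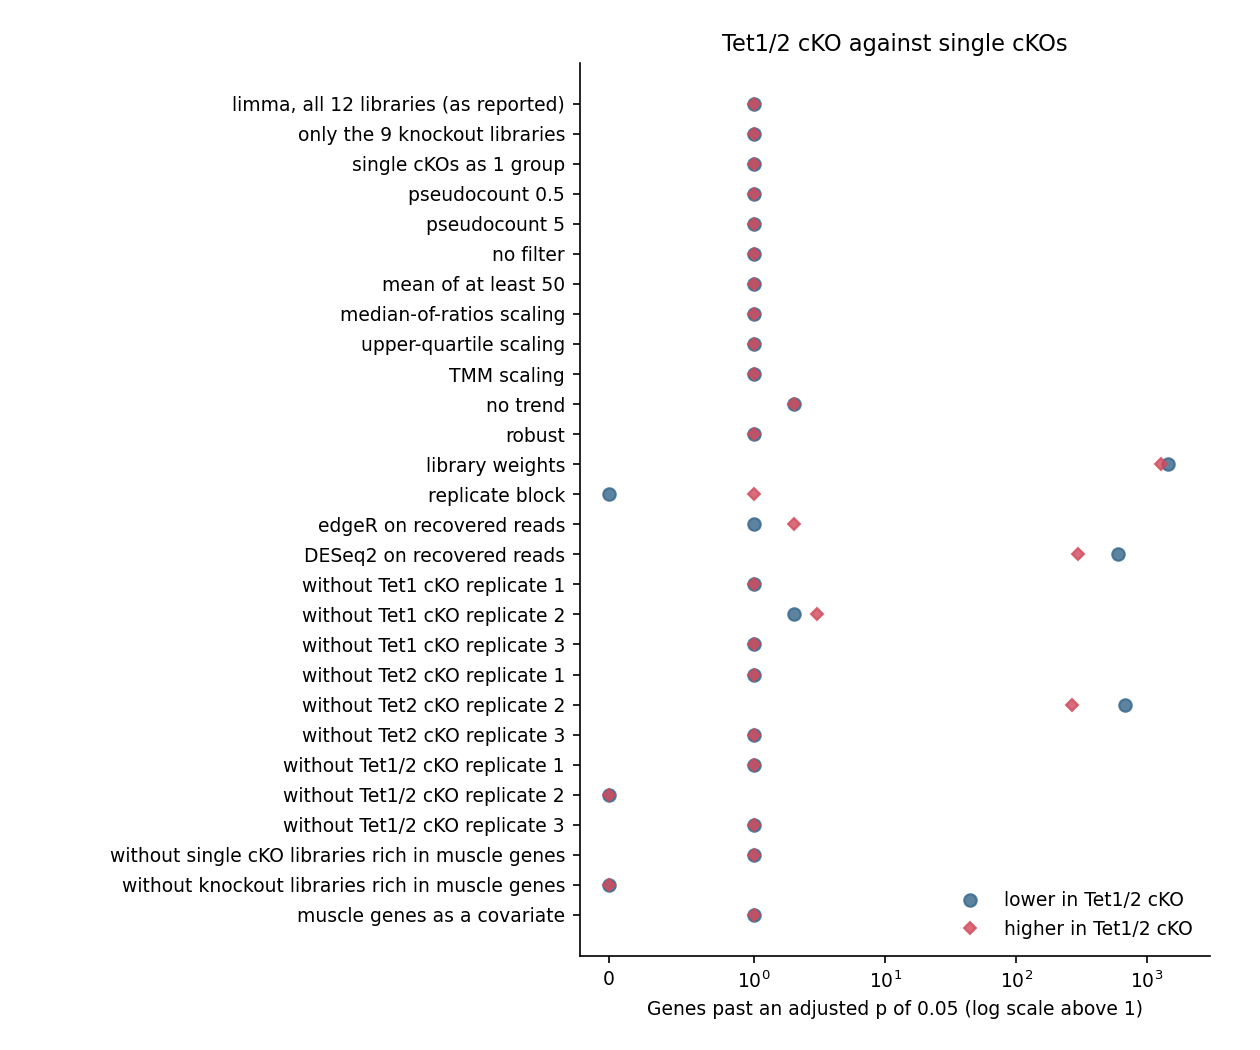
Number of genes past an adjusted p of 0.05 in Tet1/2 cKO against single cKO femurs, as lower (blue circles) and higher (red diamonds), for each way of processing, on an axis that is logarithmic above 1. Most settings give 1 gene in each direction, whereas DESeq2 gives 599 and 299 and leaving out Tet2 cKO replicate 2 gives 677 and 269, and library weights, which did not converge, give 2732 in all.

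Summed as a list, bone genes were lower in the double knockout than in 5 of the 6 single knockout libraries, while Tet2 cKO replicate 2 lay among the double knockouts. The list called Bone60 holds 59 genes that the study named as selective for bone and related to these libraries, so its direction is not independent evidence. All 59 were tested. Of them, 54 had a negative log2 difference and 5 a positive one, with a median of -0.96 against -0.01 over all genes tested. At an unadjusted p under 0.05, 24 were lower and 1 higher, against 9.89% and 10.1% of all genes, and 0 passed with adjustment in limma or edgeR. With DESeq2, 17 fell and 0 rose, against 4.23% of all genes called as lower and 2.11% as higher. Without Tet2 cKO replicate 2, limma gave 27 that fell and 0 that rose, against 4.03% and 1.6% of all genes. That library was picked out for its low osteoblast sum, so its removal favours such calls. Without Tet1/2 cKO replicate 2, limma called 0 of all genes. The 5 members that lay below the range of all 6 single cKO libraries were Dlx5, Hes1, Ushbp1, Gpihbp1 and Cdh15, against 3.54% of all genes. Without Tet2 cKO replicate 2, 31 lay below and 1 above, against 1508 and 1558 of all 16780 genes. Without Tet1/2 cKO replicate 3, 8 lay below, against 1458 of all genes. Of 20 osteoblast genes, 13 of them also in Bone60, 2 lay below the range (Car12 and Dlx5). Without Tet2 cKO replicate 2, 17 did, and without Tet1/2 cKO replicate 2, 4 did, against 1508 and 911 of all genes. In bulk tissue, fewer cells of a type and less RNA per cell cannot be told apart.

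Dlx5, a homeobox factor of early osteoblasts, had normalized counts of 39.7, 138 and 123 in Tet1/2 cKO femurs. The single cKO libraries ranged from 254 to 795 with a median of 484, and the Ctrl libraries had 270, 333 and 489. All 3 double knockout libraries were below every other femur, with a log2 difference of -2.38 to the single cKOs (standard error 0.45, limma adjusted p = 0.204, DESeq2 adjusted p = 0.000237). Car12, a carbonic anhydrase of the osteoblast list, showed a similar gap, with 154, 177 and 145 in Tet1/2 cKO and 192 to 1445 (median 784) in single cKO libraries. The log2 difference of Car12 was -2.12 (standard error 0.42, limma adjusted p = 0.204). Hes1, a target of Notch signalling, had 259, 180 and 173 against 273 to 572 (median 411). The highest Hes1 value of the double knockout thus came close to the lowest single value.

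Col1a1, the main collagen chain of bone, had normalized counts of 112045, 247495 and 198946 in Tet1/2 cKO femurs. In single cKO libraries it ranged from 114889 in Tet2 cKO replicate 2 to 1674541 in Tet1 cKO replicate 3, with a median of 515877, so a single library made the groups overlap. Its log2 difference was -1.58 (standard error 0.74, limma adjusted p = 0.258, and 0.0734 without Tet2 cKO replicate 2). Bglap, which encodes osteocalcin, had 4787, 13124 and 6672 against 5883 to 56594 (median 22508). Its log2 difference of -1.56 (standard error 0.54) had a limma adjusted p of 0.206, which was 0.04 with a difference of -1.91 when Tet2 cKO replicate 2 was left out. Bglap and its near copy Bglap2 may share reads, so the level of each is uncertain. Alpl, the phosphatase that permits mineralisation, had 1758, 3599 and 2402 against 1998 to 12687 (median 7391). Alpl thus differed by -1.26 on the log2 scale (standard error 0.48, limma adjusted p = 0.214, and 0.04 without Tet2 cKO replicate 2). Sp7, the transcription factor osterix, had 1404, 2070 and 1220 against 942 to 8389 (median 4312), with a limma adjusted p of 0.212 that was 0.0391 without Tet2 cKO replicate 2. Runx2, the factor that starts the osteoblast lineage, differed less, with 3964, 3397 and 3579 against 2782 to 7187 (median 5203) and a log2 difference of -0.41 (standard error 0.25, limma adjusted p = 0.363). The gap was thus wider for Col1a1, Bglap and Alpl than for Runx2, though the difference between these genes was not tested. It was widest for Dlx5, an early factor, at -2.38. The bone genes Spp1 and Ibsp lay between, with DESeq2 log2 differences of -0.711 and -1.1 against -0.458 for Runx2. Their DESeq2 adjusted p-values were 0.161, 0.0861 and 0.238.

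**Figure D3:**
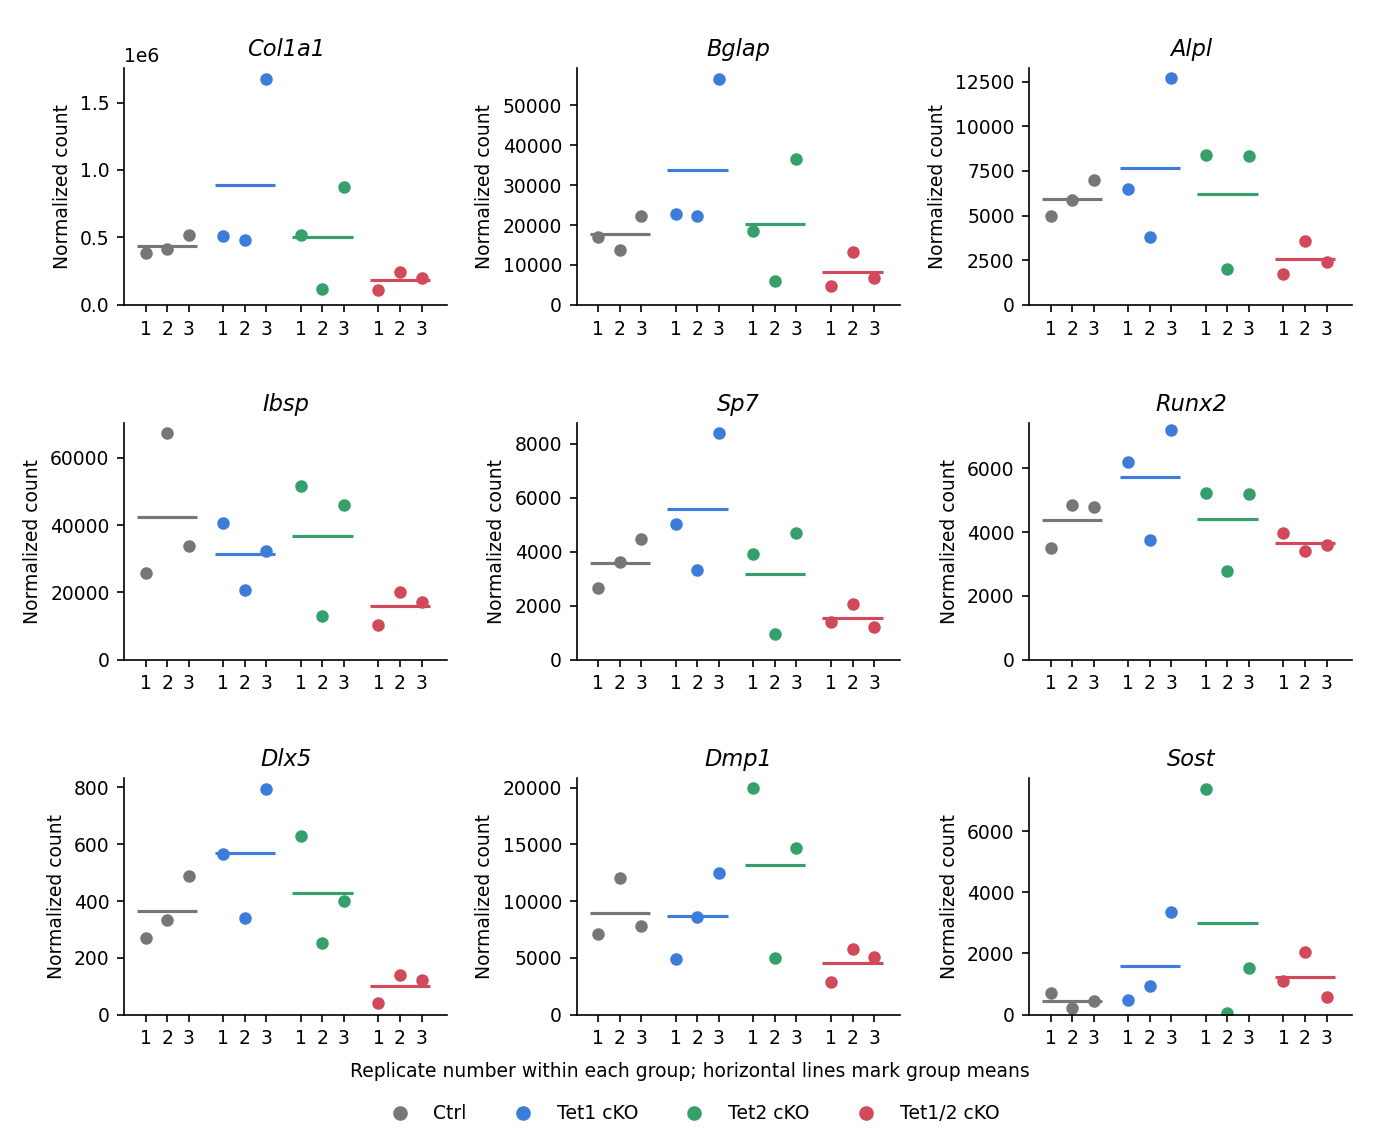
Normalized counts of 9 bone genes in each femur library, grouped by genotype and marked by replicate number, with horizontal lines at the group means and linear axes. Tet2 cKO replicate 2 lies among or below the Tet1/2 cKO libraries for 8 of the 9 genes, whereas for Dlx5 all 3 Tet1/2 cKO values are below it.

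Over 15 osteocyte genes the median log2 difference was -1.01. Of them, 0 lay below and 1 above the range of the single cKOs, against 3.54% and 5.8% of all genes. Dmp1, a matrix phosphoprotein of osteocytes, had 2833, 5823 and 5067 in Tet1/2 cKO against 4928 to 19986 (median 10546) in single cKO libraries. Sost, which encodes the Wnt inhibitor sclerostin, had 1115, 2033 and 567 against 56.8 to 7373 (median 1235). Its log2 difference of 0.13 (standard error 1.22) carried no direction and was negative in edgeR and DESeq2. The gene above the range was Cd44, a cell surface receptor also found on blood cells, with 20595, 11223 and 10943 against 7489 to 10765. Of 15 osteoclast genes, 0 lay outside the range (9.34% of all genes did) and the median was -0.33. Ctsk, the collagen-cutting protease of osteoclasts, had 12236, 23301 and 25515 against 15941 to 61552 (median 25838). Csf1r, the receptor that keeps osteoclast precursors alive, had 8912, 8395 and 8162 against 5391 to 13628, with a sign that turned when libraries rich in muscle were left out.

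The collagen genes and the enzymes that modify collagen shifted in the same direction as the osteoblast list. Col1a1, Col1a2 and Col5a2 are in both the osteoblast and the fibrillar collagen list, so these lists are not independent. All 11 fibrillar collagens had negative differences, with a median of -1.34, and 5 fell with DESeq2 (4.23% of all genes did) and 5 in limma without Tet2 cKO replicate 2 (4.03% of all genes). Col27a1 lay below the single range, with 386, 498 and 763 against 768 to 2833 (median 2154). Of 20 genes for collagen hydroxylases and crosslinking, 19 were negative with a median of -0.88, and 7 fell with DESeq2 and 9 without Tet2 cKO replicate 2, against the same shares of all genes. Several of these enzymes, such as the lysyl hydroxylase Plod1, need vitamin C as the TET proteins do. Plod1 had 986, 1579 and 1682 against 1773 to 3391 (median 2498), all below the single cKO libraries. Its log2 difference was -0.86 (standard error 0.25, limma adjusted p = 0.204 and DESeq2 adjusted p = 0.0353). Serpinh1, the chaperone of procollagen, had 2941, 5783 and 5223 against 4004 to 28080 (median 13357), which overlapped through Tet2 cKO replicate 2 alone (limma adjusted p = 0.204, and 0.0391 without that library). P4hb, a subunit of prolyl hydroxylase that is also used by every secretory cell, had 15212, 14956 and 11881 against 9026 to 15719, with no clear direction (log2 difference 0.18, standard error 0.19, negative without the single cKO libraries rich in muscle).

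Among 25 genes of BMP and TGF-beta signalling, which drives osteoblast differentiation, 22 were negative with a median of -1.17. The members below the single range were Id3, Inhbb, Nog and Smad7, and Inhba was above it, against 3.54% and 5.8% of all genes. Counts of Nog were low and barely cleared the range, with 0, 10.7 and 23.0 against 23.8 to 117. Without Tet2 cKO replicate 2, 10 lay below and 1 above, against 1508 and 1558 of all 16780 genes. Without Tet1/2 cKO replicate 3, 8 lay below and 1 above, against 1458 and 1807 of all genes. Id3, a direct target of BMP receptors, had 813, 1868 and 1765 in Tet1/2 cKO femurs against 2418 to 6920 (median 4459) in single cKO femurs, with 2307, 4216 and 4042 in Ctrl. It was lower in every double knockout library than in any other femur, with a log2 difference of -1.63 (standard error 0.36, limma adjusted p = 0.204, DESeq2 adjusted p = 0.00351). The inhibitory Smad7 had 535, 399 and 502 against 572 to 915, a smaller gap with a log2 difference of -0.60 (standard error 0.20). Bmp1, which trims procollagen, had 2535, 5216 and 4992 against 3615 to 16987 (median 10869). With DESeq2, 5 of the 25 fell (Bmp1, Inhbb, Chrd, Id3 and Smad6), and without Tet2 cKO replicate 2, 9 fell in limma, these 5 among them, against 4.23% and 4.03% of all genes. In the list of 27 Wnt antagonists and targets the median was -0.83, with 22 negative and 5 positive. Of the 27, 2 lay below the single range (Axin2 and Wnt10b) and 0 above it, against 3.54% and 5.8% of all genes. Axin2, a general target of Wnt signals, had 32.1, 91.3 and 98.8 against 118 to 361 (median 179), and Wnt10b, a ligand that favours bone formation, had 89.3, 113 and 119 against 142 to 990 (median 316). Neither gene passed in limma (adjusted p = 0.204 and 0.205), and both passed in DESeq2.

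Other mesenchymal lists shifted in the same direction. All 16 tested genes for limb Hox factors and the Prrx1 lineage were negative, with a median of -1.41. Of these, 0 lay outside the range, against 9.34% of all genes. Prrx1 itself, whose enhancer drives the Cre, had 971, 1563 and 1884 in Tet1/2 cKO against 1668 to 7382 (median 4097) in single cKO libraries. Its log2 difference of -1.36 (standard error 0.49) had a limma adjusted p of 0.211. In the chondrocyte list, with a median of -1.06 over 15 genes, Acan and Comp lay below the range, against 3.54% of all genes. Acan, the core protein of aggrecan, had 53.4, 111 and 152 against 220 to 2901 (median 811), and Comp, an oligomeric protein of cartilage and tendon, had 100, 450 and 516 against 526 to 3252 (median 1344). Genes of periosteum and fibroblasts had a median of -1.68 over 18, with 0 outside the range, against 9.34% of all genes. Col3a1, the collagen of soft connective tissue, had 4392, 7359 and 26728 against 18411 to 166332 (median 36497). Summed over the list, counts were 71799, 99981 and 136221 in Tet1/2 cKO and 115938 to 517653 in single cKO femurs. The highest sums came from Tet1 cKO replicate 1 and Tet2 cKO replicate 1 (403620), the 2 libraries with the most muscle RNA, and the part of muscle or attached tissue in these differences was not tested. All 20 muscle genes had a negative difference, from -3.48 to -0.29, and 0 of them had an unadjusted p under 0.05. Adipocyte and marrow stromal lists had medians of -0.64 and -0.39.

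Several genes of basophils and mast cells were higher in the double knockout. Of 10 genes of this list, 6 lay above the range of all 6 single cKO libraries (5.8% of all genes did). They were Fcer1a, Cpa3, Mcpt8, Prss34, Ms4a2 and Kit. The number above was 6 with each library left out in turn, against 1019 to 1807 of all 16780 genes. Over the list 7 genes were positive and 3 negative, the latter being the mast cell proteases Tpsb2, Cma1 and Mcpt4. Their counts were low, with no value above 28.8 in Tet1/2 cKO and none above 91.5 in single cKO libraries. Fcer1a, the IgE-binding chain of the high-affinity IgE receptor, had 815, 465 and 411 in Tet1/2 cKO libraries and 81.3 to 180 (median 116) in single cKO libraries. Ctrl femurs lay between them with 258, 191 and 188. The log2 difference was 2.24 (standard error 0.30), with an adjusted p of 0.064 in limma and 0.0384 in edgeR, so that its call depended on the tool. Mcpt8, a protease of basophils, had 7219, 4747 and 2710 against 804 to 2116 (median 1769). Its log2 difference was 1.53 (standard error 0.34, limma adjusted p = 0.204, DESeq2 adjusted p = 0.00239). Ms4a2, another chain of the IgE receptor, had 439, 269 and 289 against 81.6 to 158. Summed over the list, counts were 23546, 18184 and 12307 in Tet1/2 cKO, 4773 to 10379 in single cKO and 10800 to 13176 in Ctrl femurs. The sums did not overlap between double and single knockouts, while 1 of the double knockout sums lay within the Ctrl range.

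Neutrophil genes were also high in the double knockout, with less separation. Of 20 genes, 19 were positive with a median log2 difference of 1.10, and 12 had an unadjusted p under 0.05 as higher (10.1% of all genes did). Their sum was 3080343, 1887634 and 1377118 in Tet1/2 cKO libraries, which were flushed of marrow like all others, and overlapped the single cKO range through Tet2 cKO replicate 2. Ctsg, a serine protease of early granulocytes, lay above the range, with 22597, 14252 and 11487 against 3264 to 10889 (median 8046). It was the 1 gene of the list to do so, against 13 without Tet2 cKO replicate 2 and 5 without Tet1/2 cKO replicate 3. Over all 16780 genes 5.8% lay above with every library kept, and 1558 and 1807 genes did in these settings. S100a9, a calcium-binding protein of granulocytes, had 946136, 569875 and 380470 against 117520 to 541643 (median 248165). DESeq2 gave 4 of the 20 as risen (2.11% of all genes) and limma without Tet2 cKO replicate 2 gave 5 (1.6%). In every Tet1/2 cKO library the neutrophil sum exceeded the osteoblast sum (348255, 761946 and 558994), whereas among the single cKO libraries this held for Tet2 cKO replicate 2 alone and among Ctrl for replicate 1. The part of marrow left in the bone in these differences was not tested. Megakaryocyte and erythroid genes had smaller positive medians of 0.59 and 0.57, and B-cell precursor genes a negative one of -0.39, so blood lineages did not all shift in the same direction.

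**Figure D4:**
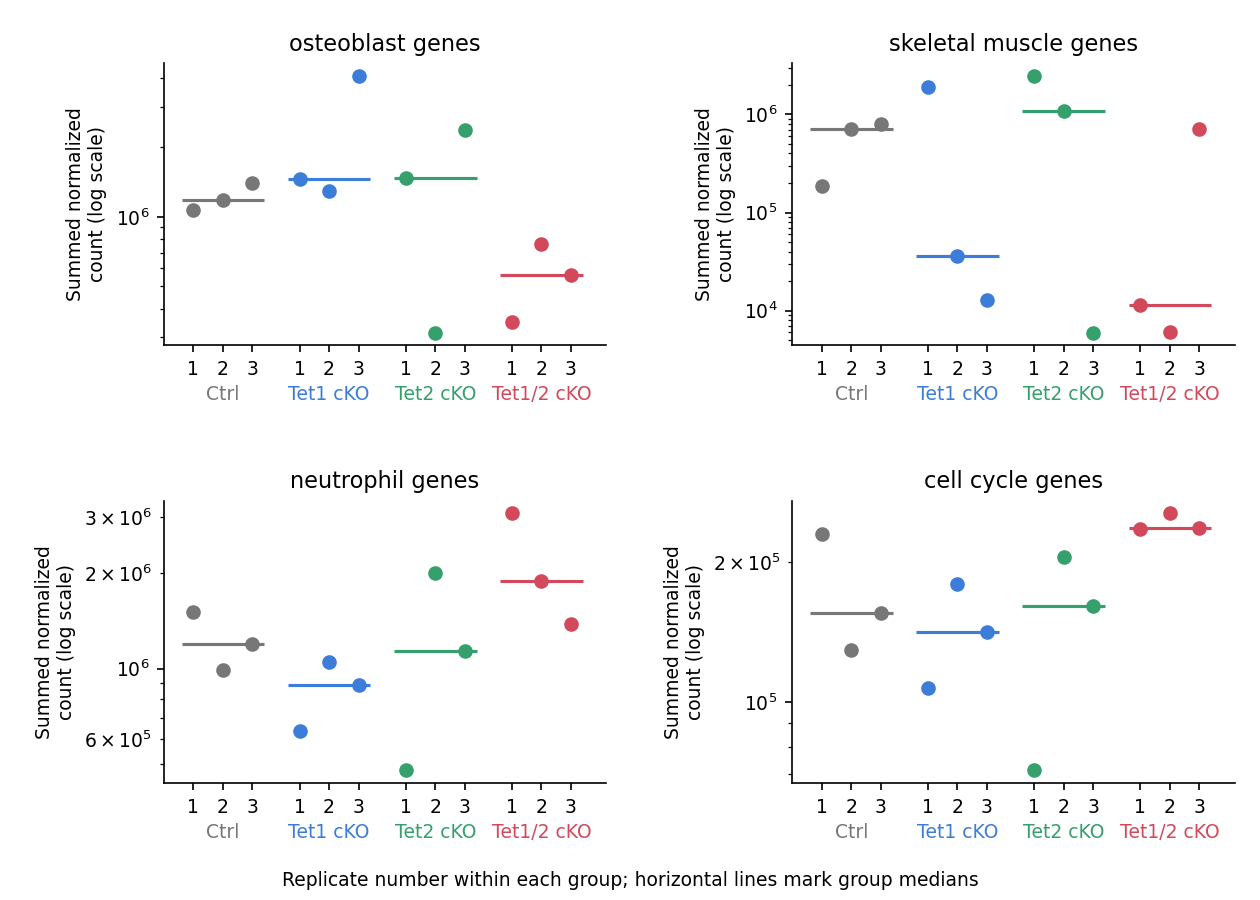
Summed normalized counts, on log axes, of 20 osteoblast, 20 skeletal muscle, 20 neutrophil and 20 cell cycle genes in each femur library, with lines at the group medians. The Tet1/2 cKO libraries lie at 348255 to 761946 for osteoblast genes and at 235452 to 254617 for cell cycle genes, the latter above all single cKO libraries.

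Cell cycle genes were higher in the double knockout as a list. All 20 were positive with a median of 0.77, and 12 lay above the range of the single cKO libraries, against 5.8% of all genes. This count was 12 to 15 with any single library left out, against 1019 to 1807 of all 16780 genes. It was 16 without the knockout libraries rich in muscle, against 3335 of all genes. In limma 0 of the 20 passed. DESeq2 gave 1 as risen (Ccne2, against 2.11% of all genes) and limma without Tet2 cKO replicate 2 gave 5 (against 1.6%). Mki67, a marker of dividing cells, had 74432, 89184 and 86552 in Tet1/2 cKO against 21094 to 66638 (median 47568) in single cKO libraries. Cdk1, the kinase that brings about mitosis, had 9218, 9292 and 8088 against 2650 to 7053 (median 5166). For Cdk1 the log2 difference was 0.89 (standard error 0.28, limma adjusted p = 0.204). Ccne2, a cyclin of the step into S phase, had 1363, 1153 and 1377 against 433 to 929 (median 809), and 947, 641 and 609 in Ctrl. The sum over the list was 235452, 254617 and 236723 in Tet1/2 cKO and 71357 to 205646 in single cKO femurs. Ctrl replicate 1, with 229932, came close to the double knockouts. Among the single cKO libraries the sum was lowest in Tet2 cKO replicate 1, which had the most muscle RNA, and highest in Tet2 cKO replicate 2, which had the most neutrophil RNA. Which cells divided cannot be read from whole femurs.

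**Figure D5:**
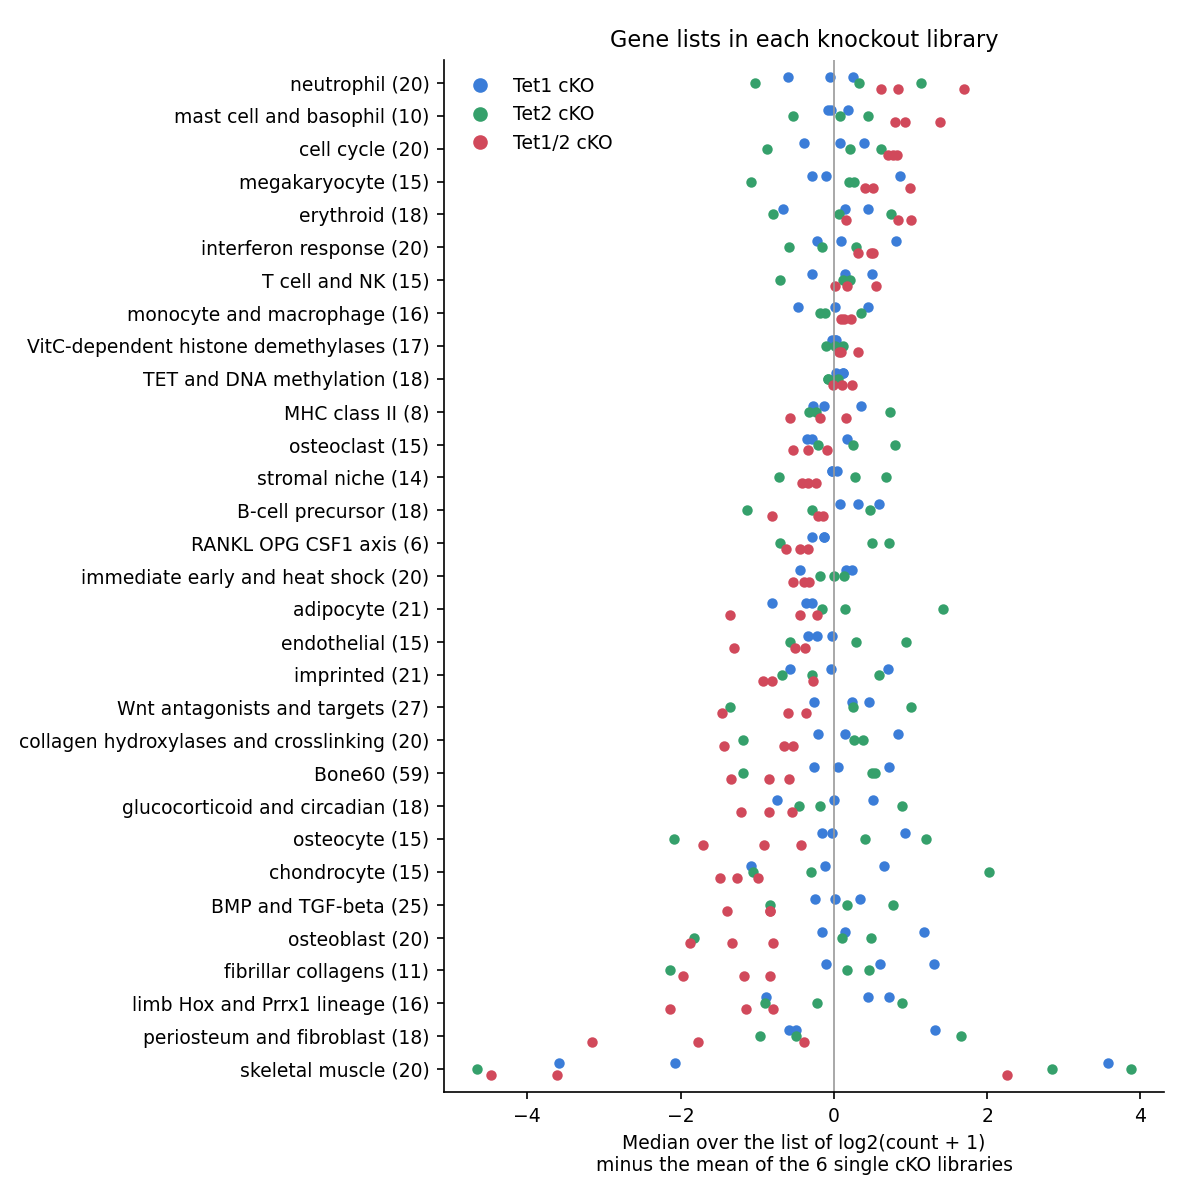
For 31 gene lists (number of tested genes in brackets), the median log2 value of each of the 9 knockout libraries minus the mean of the 6 single cKO libraries, ordered by the list's median log2 difference between Tet1/2 cKO and single cKOs. The 3 Tet1/2 cKO libraries lie to the right for mast cell and basophil and for cell cycle genes, and to the left of 0 for osteoblast, BMP and TGF-beta and limb lists, where Tet2 cKO replicate 2 lies among or near them.

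Genes of DNA demethylation and of vitamin C-dependent chromatin enzymes had medians near 0, with several members outside the range. In 18 genes of the TET pathway and DNA methylation the median was 0.07, and in 17 histone demethylases 0.17. Apart from Tdg, Mbd4 and Gadd45a lay above and Mbd3 below the range of the single cKOs. With Tdg counted, 22.2% of this list lay outside it, against 9.34% of all genes. Summed over the list, counts were 71062, 65533 and 67866 in Tet1/2 cKO and 56312 to 65507 in single cKO libraries, which did not overlap but nearly met. This sum includes Tdg but not Tdg-ps2, to which 689 to 912 counts were assigned in each single cKO library. The gap between the sums is smaller than that, so it cannot be separated from how reads of the pair were assigned. Mbd4, a glycosylase that like TDG removes mismatched thymine, had 1650, 1398 and 1442 in Tet1/2 cKO against 665 to 1341 (median 979) in single cKO femurs, with a log2 difference of 0.57 (standard error 0.17, limma adjusted p = 0.204). Dnmt1, which copies methylation to new strands, had 11183, 9202 and 9519 against 4268 to 9806 (median 7459). Of 17 histone demethylases, Kdm2a, Kdm3a, Kdm5a and Kdm6a lay above the range and Kdm4b below it, 29.4% of the list against 9.34% of all genes. Kdm2a and Kdm3a barely cleared it, with lowest Tet1/2 cKO values of 7430 and 2990 against highest single values of 7413 and 2948. Their log2 differences were 0.17 and 0.23 (standard error 0.12 for both). Kdm6a, which removes methyl groups from lysine 27 of histone H3, had 2360, 2516 and 2504 against 1608 to 2034, a log2 difference of 0.38 (standard error 0.12). Kdm4b, an enzyme acting on lysine 9, had 744, 628 and 683 against 783 to 1392 (median 1105), a log2 difference of -0.67 (standard error 0.17). Neither passed in limma (adjusted p = 0.204 for both), and Kdm4b passed in DESeq2 (adjusted p = 0.0143).

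Of 18 genes regulated by glucocorticoids or the circadian clock, 16 were negative with a median of -0.99, and Per2, Per3 and Nr1d2 lay below the single range, against 3.54% of all genes. In limma and edgeR 0 of the 18 passed. Per2, a repressor in the clock, had 938, 780 and 948 in Tet1/2 cKO, 1134 to 2734 (median 1789) in single cKO and 1298, 1750 and 1357 in Ctrl libraries. Its log2 difference was -1.06 (standard error 0.26, limma adjusted p = 0.204, DESeq2 adjusted p = 0.00905). DESeq2 gave 6 of the 18 as fallen (Per2, Per3, Nr1d1, Nr1d2, Dbp and Tef, against 4.23% of all genes), and limma without Tet2 cKO replicate 2 gave 2 (Nr1d1 and Dbp, against 4.03%). Tef, a clock-driven factor, had 1682, 2385 and 3495 against 3251 to 13906 (median 5905). The hour at which each mouse was killed is not given in the sources used here, and its part was not tested. Summed over 20 immediate early and heat shock genes, counts were 17367, 19017 and 20646 in Tet1/2 cKO, below the 21376 to 28451 of the single cKO libraries and within the 15790 to 24138 of Ctrl.

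Beyond the lists, the genes with the smallest p-values that lay outside the range and had a mean of at least 100 were led by Kcnh1 among those lower and, after Fcer1a, by Hmga2-ps1 among those higher. None of these passed in limma. Kcnh1, a voltage-gated potassium channel, had 85.5, 62.4 and 72.9 in Tet1/2 cKO against 143 to 392 (median 285) in single cKO femurs, with a log2 difference of -1.91 (standard error 0.29, adjusted p = 0.183). Bcan, which encodes the proteoglycan brevican, had 24.4, 47.9 and 53.7 against 86.2 to 477 (median 187). Its 155, 180 and 183 in Ctrl also lay above all double knockout values. Dsp, the desmosome protein desmoplakin, had 427, 576 and 320 against 21.8 to 143 (median 55.5), a log2 difference of 2.82 (standard error 0.55, adjusted p = 0.204), and 165, 125 and 51 in Ctrl. Haus6, part of the complex that builds new spindle microtubules, had 1720, 1541 and 1647 against 825 to 1141, with a log2 difference of 0.71 (standard error 0.15).

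Each single knockout was also taken on its own. The Bone60 median was -0.98 in Tet1/2 cKO against Tet1 cKO and -0.85 against Tet2 cKO. For the osteoblast list it was -1.79 and -0.90, and for the cell cycle list 0.75 and 0.83. The comparisons with Ctrl, which share their control libraries, gave Bone60 medians of 0.21 in Tet1 cKO, -0.03 in Tet2 cKO and -0.93 in Tet1/2 cKO. By these group medians the single knockouts sat near the control level of Bone60 and the double knockout below it, with a median interaction of -1.13. The Tet2 cKO libraries were spread widely. Relative to the single cKO mean, their Bone60 medians were 0.50, -1.185 (replicate 2) and 0.54, against -0.32 to -0.01 in Ctrl libraries. For the osteoblast list the medians against Ctrl were 0.53 in Tet1 cKO and -0.23 in Tet2 cKO. In limma, 0 Bone60 genes passed in these comparisons. In Tet1/2 cKO against Ctrl, 0 genes passed in limma and 847 had an unadjusted p under 0.05, and in Tet1 cKO against Tet2 cKO 0 passed and 669 had one. Neither edgeR nor DESeq2 was run for the comparisons with Ctrl or between the single knockouts. For Dlx5 the log2 difference between Tet1/2 cKO and Ctrl was -1.99, for Col1a1 -1.30 and for Bglap -1.21. For the genes that were high in the double knockout, part of the gap to the single cKOs came from lower single values: the log2 difference to Ctrl was 1.35 for Fcer1a and 0.71 for Mcpt8, both smaller than that to the single cKOs.

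Peak lists of 5hmC from hMeDIP-seq, in which an antibody enriches DNA with this mark, were used for Ctrl and Tet1/2 cKO femurs. Each list was called on 3 pooled samples, so there is no replicate and no test. The series holds no hMeDIP-seq of single cKO femurs, so 5hmC of double and single knockouts cannot be compared. The Ctrl list held 259326 peaks that covered 273 Mb, with 3.45 as their median fold enrichment. The Tet1/2 cKO list held 146626 that covered 123 Mb, with 4.02. Within 30 kb of the start site of 16568 tested genes, Tet1/2 cKO had 0.567 peaks for each Ctrl peak. This ratio was 0.708 near Bone60 genes (634 and 896 peaks), 0.735 near osteoblast genes (225 and 306) and 0.432 near cell cycle genes (89 and 206). Genes that lay below the range of the single cKOs had a ratio of 0.627 and those above it 0.501. Bone60 genes also had more Ctrl peaks to begin with (median 15, against 11 over all genes). Since each list was called on its own and their lengths differ, these ratios do not measure how much of the mark was kept.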

How the data were processed

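RNA-seq of Tet1/2, Tet1 and Tet2 cKO and Ctrl femurs (3 libraries each) was used. The authors trimmed reads with Trim Galore 0.4.3.1, aligned them to mm10 with STAR 2.6.0b-1, counted with featureCounts 1.6.3 and deposited normalized counts, a signal of counts divided by DESeq2 size factors. In all 12 libraries 100% of values were within 0.01 of whole reads after scaling, and these reads served edgeR and DESeq2 only. The library kit does not mark strand. Fold enrichment of 5hmC peaks is the deposited MACS2 ratio. The −log10 p and q values in the same lists, as deposited by the authors, were not tested. Values were taken as log2(normalized count + 1), so differences of low genes are understated, and tested with limma (eBayes with trend, two-sided) over 12 libraries, with Benjamini-Hochberg adjustment over 16780 genes and a threshold of 0.05. Genes are named by list, level and p by rule (121 genes), and the members of lists outside the range were named after their values were seen. Genes and lists were chosen with earlier results of these data known. The steps were tested on simulated data. Alternatives changed scaling, filter, pseudocount, model, tool and libraries. Versions were DESeq2 1.42.0, edgeR 4.0.16 and limma 3.58.1 in R 4.3.3, and Biopython 1.88 in Python 3.11.15.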

Additional observations from a re-analysis of the deposited data

Results flagged for a closer look

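Of 154 values of named genes and list sums examined in the 6 single cKO libraries, 7 had a library far from the rest by Dixon's test. Chance alone flags about 1 of 20 groups, so the 7 are about as many as chance would give. Tet2 cKO replicate 2 was the low library for Col11a1 (7675 normalized counts), Col2a1 (1637) and the sum of the chondrocyte genes (11180). This sum includes both of those genes, so the 3 values are not independent. Tet2 cKO replicate 1 was low for Cd44 (7489) and high for Sox17 (967.9), an endothelial transcription factor. Tet1 cKO replicate 1 was low for Gzmb (2.729), which encodes granzyme B of cytotoxic lymphocytes, and high for the sum of immediate early and heat shock genes (28450).

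The interaction, which compares the double knockout with the sum of the single changes, passed in limma for 2 features, with 4.385 on the log2 scale for Tdg and -9.031 for Tdg-ps2. Reads can be assigned to either of this near-identical pair, so these are differences in assigned counts, not measured effects of Tet loss on the 2 genes.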

How the results depend on the processing

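The number of genes past the threshold in Tet1/2 cKO against single cKOs, 2, became 4 with no trend, 2732 with library weights (whose estimation did not converge), 898 with DESeq2, 0 without the 4 knockout libraries rich in muscle genes and 0 to 946 with 1 library left out. The calls of 2 against Tet1 cKO and of 2 against Tet2 cKO became 0 and 0 with the 9 knockout libraries alone, 1830 and 410 with library weights, 1 and 1 with edgeR, 192 and 475 with DESeq2, 0 and 0 without the libraries rich in muscle, and 0 to 3 and 0 to 735 with 1 library left out. Against Tet2 cKO it was also 0 without the 3 single cKO libraries rich in muscle. The interaction, with 2 genes, gave 51 with library weights, 107 with DESeq2, 1 without the single and 0 without all knockout libraries rich in muscle and 2 to 6 with 1 library left out. The number of genes outside the range, 1567, was 4787 and 6920 without these libraries and 1669 to 3265 with 1 library left out, as fewer libraries give a narrower range. Replicate numbers did not pair the libraries (same-number correlations of deviations from -0.567 to 0.529, 6 of 18 above 0.1). With the replicate block 1 gene passed against single cKOs and 0 against each single knockout, Tdg-ps2 having an adjusted p of 0.0502. The Bone60 median was -1.329 to -0.7287 with 1 library left out. The settings with muscle and the counts of list members outside the range were chosen after seeing the data.

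The sign turned for 14 named genes, none of them past the threshold. With library weights the log2 difference was -0.1211 for Tet2, -0.07114 for Tet3, -0.0735 for Sost, -0.1029 for Csf1r and 0.09573 for Lpl. With 1 library left out it ranged from -0.1348 to 0.2062 for Tet2 (-0.01167 without Tet2 cKO replicate 3), from -0.8453 to 0.9033 for Sost (-0.3199 and -0.1912 without Tet1/2 cKO replicate 2 and Tet1 cKO replicate 1) and from -0.501 to 0.03089 for Cd79b. Sost was -0.7987 with edgeR, -0.8146 with DESeq2 and -0.2732 with muscle as a covariate, where Atp2a1 was 0.03599. Without the single cKO libraries rich in muscle the values were -0.5996 for Sost, -0.2202 for Csf1r, 0.5496 for Lpl, 0.3306 for Myh4, 1.752 for Atp2a1, -0.02227 for Itga2b, 0.5097 for Sycp3, -0.03986 for P4hb and -0.1254 for Tgfb1. Without all knockout libraries rich in muscle they were -0.1306 for Sost, -0.1923 for Csf1r, 0.2692 for Lpl, -0.01093 for Vcam1, -0.002885 for Vwf, -0.0335 for Itga2b, 0.276 for Sycp3 and -0.04386 for Tgfb1. The cause was not tested. Of 3265 recomputed values of named genes, 3065 kept direction and side of the threshold, 162 came to pass it and 6, all of Tdg or Tdg-ps2, no longer did. Over all 27 alternatives the median of all genes lay between -0.0358 and 0.0273.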

Other observations

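Lists of imprinted genes and genes of vessels also had negative medians, while their summed counts overlapped those of the single cKO libraries. Of 21 tested imprinted genes, 19 had a negative log2 difference, with a median of -0.74. Of these genes, 1 lay below and 1 above the single range, 9.52% of the list against 9.34% of all genes. Cdkn1c, a maternally expressed inhibitor of cell division, had 186, 146 and 171 in Tet1/2 cKO against 238 to 750 (median 283) in single cKO femurs, all below the single range. Zrsr1, which is expressed from the paternal copy, lay above it, with 1944, 2000 and 1882 against 1130 to 1810 (median 1386). Neither passed in limma (adjusted p = 0.213 and 0.204). Of 15 endothelial genes, 14 were negative with a median of -0.66, and 2 lay below the single range, against 3.54% of all genes. Flt1, a receptor for VEGF, had 739, 831 and 1008 against 1205 to 4330 (median 1527). Interferon response genes had a positive median of 0.43, and Oasl2, an interferon-induced gene, lay above the range with 2308, 2407 and 2385 against 992 to 1880 (median 1334). Oasl2 was the 1 gene of 20 in this list to do so, against 5.8% of all genes.

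Genes outside the range of the single cKOs made up 11.6% of those tested on chromosome 10, which carries Tet1 and the Tdg pair, 9.07% on chromosome 3, which carries Tet2, and 9.4% on all chromosomes. Within 5 Mb of Tet1 they made up 5.8% of 69 genes and within 5 Mb of Tet2 5.66% of 53.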
